A study of Mus musculus with 282 samples.

Results

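The heat shock chaperones of the cytosol and the mitochondria were followed in mouse liver around the 24 h day. The set holds 45 genes named by symbol: 6 of the Hsp70 and Hsp110 family, 7 J proteins, 6 other Hsp70 cochaperones, 9 genes of Hsp90 and its partners, 2 small heat shock proteins, 5 mitochondrial chaperones, the 8 subunits of the chaperonin TRiC and 2 heat shock factors. They are 45 of the 15907 genes listed in the deposited tables, and beyond the symbol the rule asks only for a floor of 1 read per 1000000 reads (RPM). All 45 passed that floor in the larger table, where the lowest mean was 1.31 RPM for Bag2, and 44 passed in the smaller one, where Hspa1a averaged 0.317 RPM.

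Heat shock proteins keep other proteins folded. Hsp70 proteins bind exposed hydrophobic stretches of clients in cycles of ATP hydrolysis that J proteins start and nucleotide exchange factors such as the Hsp110 protein Hsph1 end; Hsp90 then matures kinases and steroid receptors, TRiC folds actin and tubulin inside its chamber, and Hspd1 with its lid Hspe1 does the same in the mitochondrial matrix. Heat shock factor 1, encoded by Hsf1, is the main transcription factor that raises these genes when unfolded protein builds up, and in liver its activity is known to follow the daily cycles of feeding and body temperature.

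The mice were male, on the C57BL/6J background, caged singly under 12 h of light and 12 h of darkness. Time is given as zeitgeber time (ZT), in hours after lights on. RNA came from the lateral liver lobe and was sequenced as 3' tags, so levels are compared within a gene and never between genes. The design text gives 3 to 4 biological replicates per group. Whole-body Bmal1 knockout mice (BMKO) were fed at night only and were uninjected (Ctrl), injected with vehicle (Veh) or injected with the mTORC1 inhibitor rapamycin (Drug), each beside wild-type (WT) mice on the same schedule and treatment. Mice lacking Tsc1 (TSKO), a brake on mTORC1, or Raptor (RPKO), the scaffold of mTORC1, in the liver only were also fed at night, and both are set against night-fed mice that carry Albumin-Cre alone (AC). Wild-type mice were fed arrhythmically (AF), ad libitum (LB) or at night (NF) without injection. Further arrhythmically fed wild-type mice received AZD8055, an inhibitor of the mTOR kinase, at dawn or at dusk, and the only control analysed here is the uninjected arrhythmically fed arm, so injection and drug cannot be told apart there. In a separate table, wild-type mice given tunicamycin (TM), which blocks N-glycosylation and stresses the endoplasmic reticulum, were fed arrhythmically with AZD8055 at dusk, arrhythmically without it, or at night. The first table holds 234 libraries, 13 arms sampled at ZT 2, 6, 10, 14, 18 and 22 with 3 libraries a time. The second holds 48 libraries, 3 arms sampled at ZT 4, 10, 16 and 22 with 4 libraries a time.

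Depth ran from 0.694 to 14.2 M reads in the first table (median 8.42 M) and from 4.85 to 10.1 M reads in the second (median 7.71 M), and 3 libraries held under 3 M reads: 2 of uninjected BMKO and 1 of rapamycin-injected WT. The genes targeted in liver were lower, with Tsc1 at 3.84, 7.11 and 10.9 RPM (lowest, median and highest library, before TMM scaling) in TSKO against 9.49, 15.2 and 24.3 in AC, and Rptor at 2.41, 4.16 and 9.57 in RPKO against 6.98, 9.13 and 11.7 in AC. The Bmal1 gene, Arntl, had 6.51, 10.7 and 18.3 in uninjected BMKO against 0.172, 12.1 and 26.0 in WT. A 3' tag can lie outside the deleted part, so its median does not check that genotype. The lowest library held 7.485 in vehicle-injected and 4.68 in rapamycin-injected BMKO, against 0 and 0.472 in WT. Values as low as the lowest of WT were thus not seen in BMKO. Of the 18 ad libitum libraries 10 correlated best, over genes, with the mean of the other replicates at their own time. Replicates 1 and 3 at ZT 10 correlated best with the others' ZT 14 mean, and replicates 1 and 3 at ZT 14 with their ZT 10 mean. Results of that arm are also given without the 2 libraries of replicate 3, a choice made after seeing the data. Hepatocyte markers were abundant in every arm, with median sums from 45164 to 95998 RPM, and T and B cell markers were near 0. In bulk liver, fewer cells of a type and less RNA per cell cannot be told apart.

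Heat shock factors bind DNA at heat shock elements, which are shown first. Such an element is made of inverted repeats of GAA, and a 13-base form with 3 repeats (GAANNTTCNNGAA or TTCNNGAANNTTC, so that both strands are read) was searched from 250 bases before to 50 bases after each gene start in RefSeq promoters of GRCm38.p6. It was found for 5 of the 38 members with a promoter entry (13.2%), against 179 of 27025 genes in the whole table (0.662%). The 5 were Hsph1, Chordc1, Hspe1, Hspd1 and Dnajb6; the entries of Hspe1 and Hspd1 lie head to head and hold the same element. Hspa8, St13, Hsp90aa1, Hsp90ab1, Hspa9, Cct4 and Hsf1 had no entry. Hspa1a, Hspa1b, Dnaja1, Dnajb1, Bag3, Hspb1, Stip1 and Fkbp4, whose rhythms are also described below, had an entry and no match. The search took exact matches only, so elements that depart from this form are missed. A match is a description of letters and not evidence of binding. The 4 printed here belong to members whose rhythms are described next, read 5′ to 3′ on the gene's strand with the matched bases in capitals: Hsph1 at chr5:149636287-149636586 (minus strand), Chordc1 at chr9:18292017-18292316 (plus), Hspe1 at chr1:55087898-55088197 (plus) and Dnajb6 at chr5:29735648-29735947 (plus).
Hsph1: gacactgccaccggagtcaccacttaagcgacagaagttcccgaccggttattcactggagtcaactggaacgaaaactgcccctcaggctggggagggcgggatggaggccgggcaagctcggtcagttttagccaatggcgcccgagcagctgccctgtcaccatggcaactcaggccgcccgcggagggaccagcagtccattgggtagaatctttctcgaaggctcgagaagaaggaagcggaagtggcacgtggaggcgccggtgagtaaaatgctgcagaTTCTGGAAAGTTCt
Chordc1: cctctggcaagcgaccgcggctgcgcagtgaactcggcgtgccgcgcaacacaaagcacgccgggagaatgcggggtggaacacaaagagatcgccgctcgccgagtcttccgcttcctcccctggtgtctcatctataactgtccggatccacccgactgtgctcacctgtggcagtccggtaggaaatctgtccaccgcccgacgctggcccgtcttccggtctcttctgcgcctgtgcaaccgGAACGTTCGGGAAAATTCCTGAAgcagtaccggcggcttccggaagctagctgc
Hspe1: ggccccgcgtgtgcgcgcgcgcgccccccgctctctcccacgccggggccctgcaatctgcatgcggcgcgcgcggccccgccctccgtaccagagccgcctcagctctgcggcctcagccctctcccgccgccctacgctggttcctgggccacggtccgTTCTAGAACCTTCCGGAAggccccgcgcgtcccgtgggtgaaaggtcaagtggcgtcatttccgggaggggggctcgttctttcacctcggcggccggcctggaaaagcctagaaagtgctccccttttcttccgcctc
Dnajb6: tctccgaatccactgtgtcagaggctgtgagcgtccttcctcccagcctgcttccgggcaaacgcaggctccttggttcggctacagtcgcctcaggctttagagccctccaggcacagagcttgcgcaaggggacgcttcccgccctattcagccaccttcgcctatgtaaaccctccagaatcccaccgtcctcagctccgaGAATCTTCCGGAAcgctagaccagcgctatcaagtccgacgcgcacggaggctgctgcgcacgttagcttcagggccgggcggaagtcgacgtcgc

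In livers of uninjected night-fed wild-type mice, most of the chaperones were rhythmic and peaked in the dark phase. A 24 h rhythm passed limma's joint test of the cosine and sine terms (adjusted p under 0.05 over all genes) for 29 of 45 members, against 21.9% of all genes tested. The median amplitude, the log2 distance from mean to peak, was 0.32 over the 45 members and 0.22 over all genes. All 29 peaked between ZT 13.2 (Dnajb6) and ZT 20.1 (Hspb1). The count was 18, 17 and 21 without replicates 1, 2 and 3 in turn.

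All 6 genes of the Hsp70 and Hsp110 family were rhythmic, with a median amplitude of 1.01, though Hspa4 passed in this arm alone of the 16. For Hsph1, the Hsp110 exchange factor, the 3 libraries held 16.7, 15.0 and 21.0 RPM (scaled by TMM factors, as all later levels) at ZT 2, 12.5, 13.9 and 13.1 at ZT 6 and 18.7, 26.9 and 15.9 at ZT 10. They held 169, 118 and 91.9 RPM at ZT 14, 56.3, 62.5 and 91.3 at ZT 18 and 38.7, 39.1 and 36.9 at ZT 22. Every library at ZT 14 and ZT 18 was above every library at ZT 2, 6 and 10, and the fitted amplitude was 1.5 ± 0.09, peaking at ZT 16.6 (limma, adjusted p = 3.56e-09). Hspa1b, a stress-inducible Hsp70, had 2.73, 2.77 and 2.52 RPM at ZT 6, 53.1, 31.4 and 26.0 at ZT 14 and 2.40, 3.68 and 2.65 at ZT 22. Its amplitude of 1.64 ± 0.14 was the largest of the members in this arm (limma, adjusted p = 3.51e-07), and at ZT 14 its libraries spread widely. Hspa1a, the neighbouring near-identical copy, had an adjusted p of 0.0381 with limma and 0.071 with edgeR, and how reads were split between the copies is not stated in the labels. Hspa8, the constitutive Hsp70 that folds nascent chains and uncoats clathrin vesicles, had 42.4, 37.2 and 44.7 RPM at ZT 6 and 201, 171 and 205 at ZT 14, without overlap, with an amplitude of 1.15 ± 0.09 (limma, adjusted p = 1.22e-07) and a maximum at ZT 15.3.

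J proteins, which deliver clients to Hsp70 and trigger its ATPase, were rhythmic for 5 of 7. Dnaja1, a cytosolic type I J protein, ranged over 74.8, 148 and 418 RPM (lowest, median and highest of 18 libraries) with an amplitude of 1.0 ± 0.07 and a peak at ZT 14.5. Dnajb1, the J protein that works with Hsp70 and Hsph1 on aggregates, ranged over 9.87, 19.5 and 57.8 RPM with an amplitude of 0.86 ± 0.09 and a peak at ZT 15.2. Dnajb6, an inhibitor of amyloid growth, had an amplitude of 0.51 ± 0.10, and Dnaja4 and Dnajc7 did not pass. Of the other Hsp70 cochaperones only Bag3 passed among 6. Bag3, which hands Hsp70 clients to autophagy, had 18.6, 38.6 and 135 RPM and an amplitude of 0.94 ± 0.10. The exchange factors Bag1, Bag2 and Hspbp1, the Hsp70 binder St13 and the ubiquitin ligase Stub1 did not pass.

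Of Hsp90 and its partners, 8 of 9 were rhythmic, with a median amplitude of 0.66, and the kinase-loading partner Cdc37 did not pass. Hsp90aa1, the inducible Hsp90, had 185, 185 and 205 RPM at ZT 6 and 826, 929 and 967 at ZT 18, with no overlap, an amplitude of 1.26 ± 0.06 and its maximum at ZT 17.7 (limma, adjusted p = 1.17e-10). Hsp90ab1, the constitutive form, had an amplitude of 0.61 ± 0.06 and a peak at ZT 17.7. Stip1, which bridges Hsp70 and Hsp90, had an amplitude of 0.77 ± 0.09, and Chordc1, an Hsp90 cochaperone, one of 0.87 ± 0.07. Both small heat shock proteins, which hold unfolded clients without ATP, were rhythmic: Hspb1 ranged over 6.06, 21.0 and 72.8 RPM with an amplitude of 1.30 ± 0.09 and a peak at ZT 20.1, and Hspb8, the partner of Bag3, had an amplitude of 0.37 ± 0.06 and a peak at ZT 17.8.

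Among the 5 mitochondrial chaperones only the chaperonin pair passed. Hspe1 had an amplitude of 0.57 ± 0.09 and a peak at ZT 16.2. Hspd1 had 337, 303 and 221 RPM at ZT 6 and 432, 337 and 333 at ZT 18, with an amplitude of 0.33 ± 0.09 (limma, adjusted p = 0.0255). The mitochondrial Hsp70 Hspa9, the mitochondrial Hsp90 Trap1 and the matrix J protein Dnaja3 did not pass. Of the 8 TRiC subunits 5 passed, with a median amplitude of 0.22 over the 8: Cct2, Cct3, Cct4, Cct7 and Tcp1, whose amplitudes ran from 0.22 for Cct2, 0.22 for Tcp1 and 0.26 for Cct7 to 0.26 for Cct4 and 0.28 for Cct3. Cct5, Cct6a and Cct8 did not pass. Neither heat shock factor passed: Hsf1 had an amplitude of 0.10 ± 0.11 and Hsf2 of 0.22 ± 0.11.

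**Figure D1:**
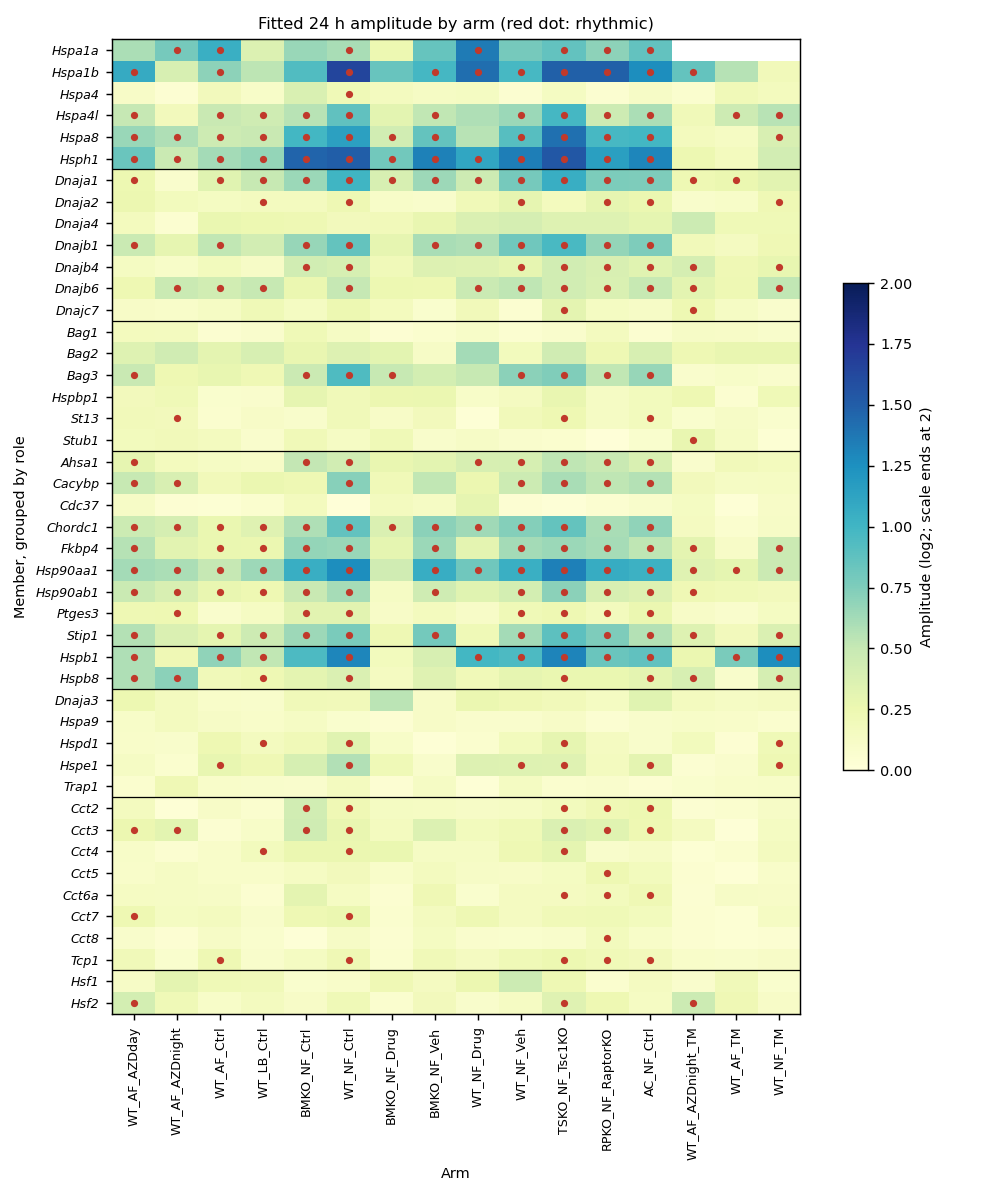
Heat map of the fitted 24 h amplitude (log2, colour scale from 0 to 2) of the 45 members (down the page, grouped by role) in the 16 arms (across), with a red dot where limma's adjusted p was under 0.05. The Hsp70, J protein and Hsp90 rows carry most dots, Hsp90aa1 in 15 arms, and the mitochondrial and heat shock factor rows few.

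The members did not peak together. In night-fed wild-type liver Dnaja1 peaked at ZT 14.5 and Hspa8 at ZT 15.3, followed by Hsph1 at ZT 16.6, Hsp90aa1 at ZT 17.7 and Hspb1 at ZT 20.1. Lags were then taken over those of the 16 arms, of any feeding, genotype or treatment, in which both genes passed the rhythm test. Hsph1 peaked after Hspa8 in 12 of 12 such arms, by 0.365 to 4.12 h, and Hsp90aa1 in 12 of 12, by 1.97 to 5.51 h (median 2.47 h). Some Hsph1 lags were smaller than their standard error. They were 0.365 ± 0.571 h in vehicle-injected BMKO and 0.862 ± 0.906 h in rapamycin-injected BMKO. In the other 4 arms of each, where one of the fits or both did not pass, the fitted lag ran from -5.61 to 7.52 h for Hsph1 and from -7.52 to 3.90 h for Hsp90aa1. Hsp90ab1 (11 of 11, median 2.65 h), Stip1 (11 of 11, median 3.28 h), the Hsp90 immunophilin Fkbp4 (11 of 11, median 3.83 h) and Hspb1 (9 of 9, median 4.62 h) also peaked later than Hspa8 where both passed. These lags are descriptions over arms that partly share a treatment, and no test was made of the order.

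**Figure D2:**
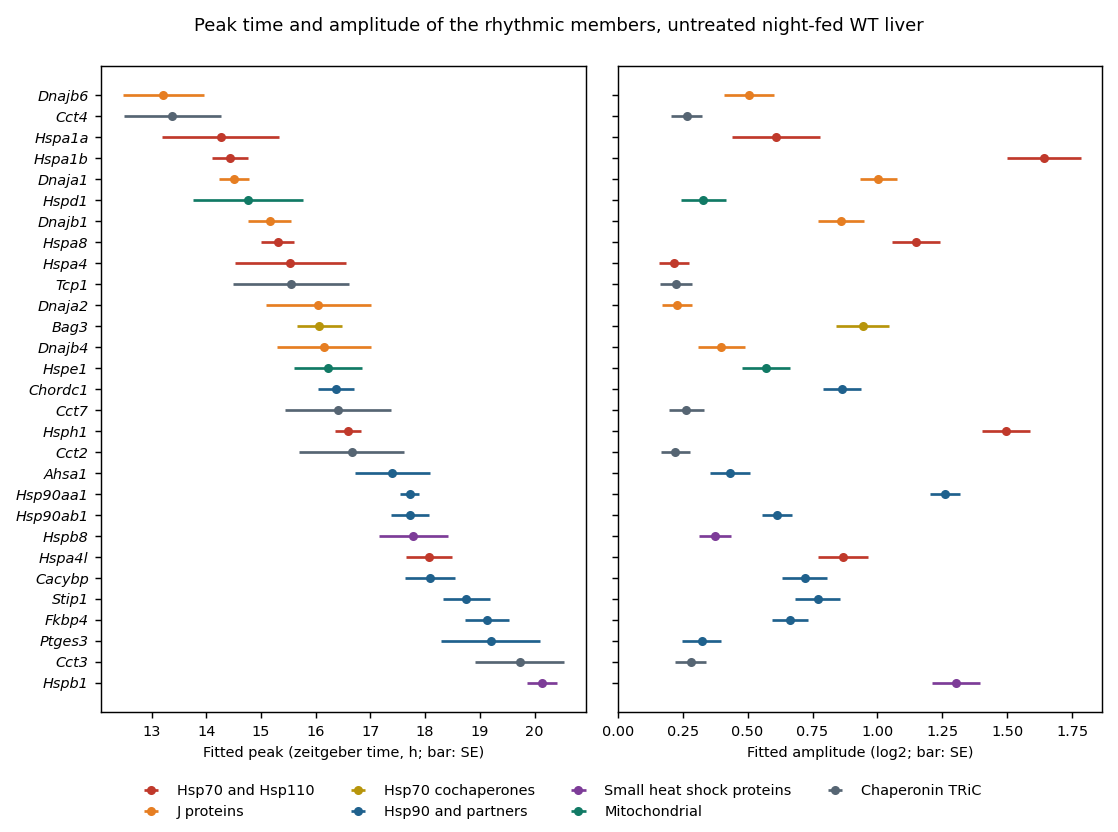
Fitted peak (left, zeitgeber time in h) and amplitude (right, log2) of the 29 members rhythmic in uninjected night-fed WT liver, with bars of 1 standard error and colours for roles. Peaks run from ZT 13.2 for Dnajb6 to ZT 20.1 for Hspb1, and Hsp90 genes lie later than Hspa8.

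Rhythmic members were counted in each of the 16 arms with the same test, each arm fitted alone. In night-fed mice with a liver knockout or its control, 30 members were rhythmic in TSKO (24.2% of all genes), 26 in RPKO (17.3%) and 27 in AC (23.1%). The count was 16 in uninjected BMKO (5.59%), 11 in vehicle-injected BMKO (5.43%) and 5 in rapamycin-injected BMKO (0.273%). It was 10 in rapamycin-injected WT (5.15%) and 20 in vehicle-injected WT (15.2%). With uninjected feeding arms it was 16 under AF (7.81%) and 15 under LB (16.5%; 19 without the 2 libraries of replicate 3), and with AZD8055 under AF it was 19 for dawn injection (21.1%) and 12 for dusk injection (19.4%). Of the 44 members tested under tunicamycin, 12 were rhythmic under AF with AZD8055 at dusk (21.3%), 4 under AF (7.42%) and 12 under NF (15.1%). With the replicate number as a block these counts were 16 in rapamycin-injected WT, 22 in vehicle-injected BMKO and 19 for dusk injection. Counts of this kind depend on the spread in each arm and do not compare arms.

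Some members were rhythmic nearly everywhere and others nowhere. Hsp90aa1 passed in 15 of 16 arms, Dnaja1 in 14, and Hspa8, Hsph1 and Chordc1 in 13 each. Dnaja4, Bag1, Bag2, Hspbp1, Cdc37, Hspa9, Trap1, Dnaja3 and Hsf1 passed in none of the 16 arms with limma. In uninjected BMKO livers, without the core clock protein Bmal1, Hsp90aa1 still had 149.6, 189 and 192 RPM at ZT 6 and 656, 654 and 631 at ZT 18, with an amplitude of 1.05 ± 0.10 and its maximum at ZT 19.2 (limma, adjusted p = 2.65e-05).

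Under both other feeding schedules several of the strong chaperone rhythms were flatter than under night feeding. Between AF and NF wild-type mice, 12 members passed limma's test of a rhythm difference, against 4.61% of all genes, and in all 12 the amplitude was lower under AF (4.32% of all genes in that direction). Between LB and NF mice 11 passed, against 0.86% of all genes, again all with lower amplitude under LB (0.844%). Hspa1b, which had the largest amplitude under NF, and Dnajb1 passed in neither comparison. By role, the 12 of AF were 6 of the 9 Hsp90 genes, 3 of 6 Hsp70 and Hsp110 genes, and 1 each of the J proteins, cochaperones and small heat shock proteins; the 11 of LB were 6, 2, 1, 1 and 1 in that order, with no mitochondrial chaperone, TRiC subunit or heat shock factor in either. Both comparisons share the NF libraries, so their values stand side by side and are not independent.

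Hsph1 had 58.5, 70.2 and 48.6 RPM at ZT 14 under AF and 81.2, 47.6 and 15.3 under LB, against 169, 118 and 91.9 under NF. At ZT 6 it had 22.5, 20.9 and 19.8 RPM under AF and 19.1, 17.7 and 12.2 under LB, against 12.5, 13.9 and 13.1 under NF. At ZT 14 the NF libraries stood above every AF and LB library. Its amplitude was 0.62 under AF and 0.68 under LB, against 1.5 under NF (limma, adjusted p = 0.00740 for AF and 0.0137 for LB).

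For Hspa8 the schedules differed in level at ZT 6 and, for LB, at ZT 14. At ZT 6 it had 78.7, 88.4 and 77.8 RPM under AF and 58.0, 63.9 and 51.9 under LB, against 42.4, 37.2 and 44.7 under NF. At ZT 14 it had 185, 227 and 164 RPM under AF and 160.1, 164 and 57.8 under LB, against 201, 171 and 205 under NF. Every AF and LB library was above the NF libraries at ZT 6, while at ZT 14 the AF and NF libraries overlapped and every LB library, with or without replicate 3, was below the NF libraries.

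Hsp90aa1 had an amplitude of 0.50 under AF and 0.64 under LB, against 1.26 under NF (limma, adjusted p = 0.00109 and 0.00353). Dnaja1 had 0.33 under AF and 0.50 under LB, against 1.0 under NF (adjusted p = 1.88e-05 and 0.0157). Stip1 had 0.30 under AF and 0.46 under LB, against 0.77 under NF (adjusted p = 0.00698 and 0.0305). For Hspb1 the amplitudes were 0.69 under AF and 0.52 under LB, against 1.30 under NF (adjusted p = 0.0484 and 0.0207). The Hspb1 call for AF was lost with edgeR (adjusted p = 0.0613), with no filter (limma, 0.0557) and without each replicate (0.0587, 0.512 and 0.210), and that for LB without each replicate (0.134, 0.458 and 0.0706). Hspa8 had 0.46 under AF and 0.49 under LB, against 1.15 under NF (adjusted p = 0.00806 and 0.0187). Bag3 had 0.29 under AF and 0.22 under LB, against 0.94 under NF. Hspa4 was called for AF alone, with amplitudes of 0.19 under AF and 0.22 under NF and peaks at ZT 7.64 under AF, from a fit that did not pass the rhythm test (adjusted p = 0.273), and ZT 15.5 under NF. Under AF alone 9 of the 12 members called for AF still passed the rhythm test, all but Bag3, Hspa4 and Cacybp: Hsp90aa1 peaked there at ZT 17.4 (limma, adjusted p = 1.86e-04) and Hspa8 at ZT 14.8 (adjusted p = 2.97e-04), in the dark phase as under NF.

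The feeding counts depended on single replicates. Without replicates 1, 2 and 3 in turn the AF count was 5, 1 and 9, and the LB count was 4, 0 and 4. Dnaja1 passed for AF without each of the 3, but its LB call was lost without each (limma, adjusted p = 0.109, 0.367 and 0.0765). Stip1 was lost without each for AF (0.0616, 0.192 and 0.0507) and for LB (0.208, 0.460 and 0.127). Hsph1 and Hspa8 were lost without replicates 1 and 2 in both comparisons, and Hsp90aa1 without replicate 2 in both. Bag3 was lost without replicates 1 and 2 for AF and without each for LB. Without the 2 ad libitum libraries of replicate 3 at ZT 10 and ZT 14, 10 members differed for LB and 13 for AF; Stip1 for LB then had an adjusted p of 0.0852.

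**Figure D3:**
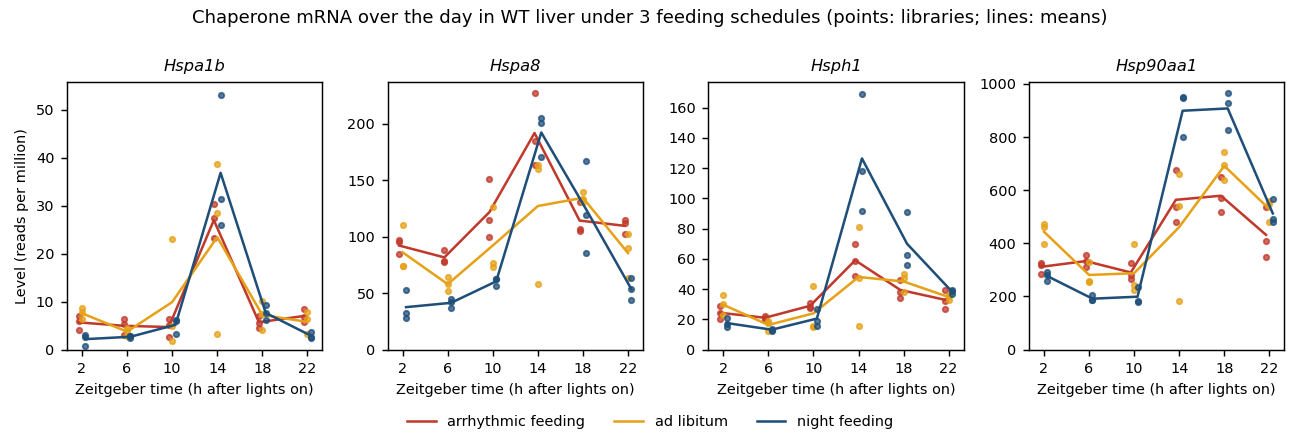
Levels (RPM, from 0) of Hspa1b, Hspa8, Hsph1 and Hsp90aa1 by zeitgeber time (h) in WT liver under arrhythmic, ad libitum and night feeding; points are libraries (3 a time) and lines join means. In each panel the night-fed mean is the lowest of the 3 at ZT 6, and the night-fed Hsph1 libraries at ZT 14 lie above those of both other schedules.

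Daily mean levels also differed with feeding, though many genes did. Under AF, 17 members differed from NF, against 44.0% of all genes, 11 higher (21.8%) and 6 lower (22.2%). Under LB 23 differed, against 52.6%, 11 higher (26.5%) and 12 lower (26.1%). Neither share of members exceeded that background. Hspa8 averaged 119 ± 18.5 RPM under AF and 97.2 ± 29.97 under LB, against 84.9 ± 19.8 under NF (SD within times, n = 18 each), a log2 difference of 0.71 ± 0.10 for AF and 0.39 ± 0.10 for LB (limma, adjusted p = 3.87e-07 and 0.00152). The mitochondrial lid Hspe1 averaged 239 ± 32.2 RPM under AF and 212 ± 32.8 under LB, against 372 ± 103 under NF, and fell in both (log2 -0.58 ± 0.08 and -0.75 ± 0.08). Ptges3, the Hsp90 cochaperone p23, also fell, with log2 -0.46 ± 0.06 under AF and -0.48 ± 0.06 under LB. Cacybp, which binds a ubiquitin ligase, rose by log2 0.57 ± 0.08 under AF and 0.53 ± 0.08 under LB, and Hspb1 fell, with -0.53 ± 0.12 and -0.64 ± 0.12. Of the TRiC subunits, Cct4 fell under AF (-0.24 ± 0.05) and LB (-0.47 ± 0.05), while Cct3, Cct5 and Cct6a rose under both by 0.11 to 0.23. The Cct6a call was lost for AF without each replicate (limma, adjusted p = 0.161, 0.109 and 0.09195) and for LB without replicates 1 and 2 (0.0598 and 0.0592). For AF, Cct5 was lost without replicates 2 and 3 (0.0517 and 0.127) and Cct4 without 2 (0.0552). Hspa8 for LB was lost without replicate 2 (0.0971).

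Loss of Bmal1 was tested once in uninjected and once in vehicle-injected night-fed mice, and the arms compared share no library. Both tests take their spread from the same fit of the uninjected, vehicle-injected and rapamycin-injected WT and BMKO arms. The rhythm differed from WT for 1 member in each: Dnaja1 in uninjected mice (against 2.83% of all genes), with an amplitude of 0.65 in BMKO against 1.0 in WT (limma, adjusted p = 0.00431), and Dnajb6 in vehicle-injected mice (against 1.75%), with 0.24 in BMKO against 0.53 in WT (adjusted p = 0.0319). Without replicates 1, 2 and 3 in turn the count was 5, 0 and 1 in uninjected mice and 0 each time in vehicle-injected mice.

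The daily mean of 35 members differed in uninjected BMKO mice, against 71.9% of all genes, 15 higher (33.9%) and 20 lower (37.9%). In vehicle-injected BMKO mice 10 differed, against 21.6%, 4 higher (10.7%) and 6 lower (10.9%), and 16, 6 and 6 without replicates 1, 2 and 3 in turn. The calls shared by both were 8 of the 35 (22.9%) and 8 of the 10 (80%), against 23% and 76.5% of the calls among all genes, so the overlap is near the background. Of the 8, 6 had the same direction, against 76.7% of the shared calls among all genes: Dnaja4 and Hspa1a higher, Hspb1, Bag2, Dnajb6 and Dnaja2 lower. Dnaja4 had 5.26, 9.25 and 14.8 RPM in uninjected BMKO against 1.37, 2.13 and 3.83 in WT (lowest, median and highest), without overlap, and 5.54, 8.42 and 15.9 in vehicle-injected BMKO against 1.06, 2.80 and 5.42 in WT. Its log2 difference was 1.82 ± 0.15 uninjected and 1.45 ± 0.15 with vehicle (limma, adjusted p = 7.06e-19 and 1.53e-13). Hspb1 had 1.97, 7.30 and 20.9 RPM in uninjected BMKO against 6.06, 21.0 and 72.8 in WT, and 2.86, 4.26 and 14.5 in vehicle-injected BMKO against 4.44, 15.5 and 63.5 in WT. Those groups overlapped across the day, and the log2 differences of the daily mean were -1.69 ± 0.18 and -1.69 ± 0.18. Hspa4, another Hsp110 protein, and St13 were called in opposite directions: Hspa4 had log2 -0.65 ± 0.09 uninjected and 0.26 ± 0.09 with vehicle, and St13 had 0.16 ± 0.07 and -0.22 ± 0.07.

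The genotype difference itself differed between uninjected and vehicle-injected mice for 33 of 45 members, against 57.5% of all genes. For Dnaja1 the daily mean was 75.4 ± 12.3 RPM in uninjected BMKO against 187 ± 31.1 in WT, and 128 ± 33.6 in vehicle-injected BMKO against 131 ± 17.8 in WT (log2 interaction -1.20 ± 0.12; limma, adjusted p = 3.65e-14). Hspe1 averaged 165 ± 44.3 RPM in uninjected BMKO against 372 ± 103 in WT, and 255 ± 33.0 in vehicle-injected BMKO against 251 ± 32.5 in WT (interaction -1.20 ± 0.14). Stub1 averaged 110.5 ± 39.4 RPM in uninjected BMKO against 39.6 ± 7.17 in WT, and 43.2 ± 13.1 in vehicle-injected BMKO against 44.8 ± 7.65 in WT (interaction 1.5 ± 0.18). Cell type markers also differed between these arms. The stellate and fibroblast sum (5 of 5 markers in the table) ran from 80.8 to 231 RPM in uninjected BMKO against 222 to 334 in WT, and from 174 to 307 in vehicle-injected BMKO against 217 to 408 in WT. The sinusoidal endothelial sum (5 of 5) ran from 74.8 to 168 in uninjected BMKO against 150.0 to 237 in WT, and from 145 to 214 in vehicle-injected BMKO against 156 to 245 in WT. The Kupffer sum (7 of 7) ran from 61.8 to 254 in uninjected BMKO against 91.3 to 301 in WT. The cholangiocyte sum (4 of 4, of which 2 averaged under 0.5 RPM in both arms) ran from 38.2 to 86.8 in uninjected BMKO against 4.57 to 39.4 in WT. Hepatocyte sums (6 of 6) were lower in both, at 30745 to 59716 in uninjected BMKO against 71413 to 94094 in WT, and at 36069 to 72376 in vehicle-injected BMKO against 67691 to 114675 in WT. Their part in the result was not tested.

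In vehicle-injected BMKO, Hspa1b averaged 14.9 ± 14.1 RPM against 6.50 ± 3.43 in WT, with 10.3, 71.8 and 66.5 RPM in the 3 BMKO libraries at ZT 14. The call was lost without replicate 2 (limma, adjusted p = 0.0560).

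Rapamycin was compared with vehicle in night-fed mice of both genotypes. No rhythm difference passed in either. In WT the limma count was 0 members and 0.0% of all genes, with 4 members at an unadjusted p under 0.05 and 0 by edgeR. In BMKO the limma count was 0 members against 0.313% of all genes, with 11 members at an unadjusted p under 0.05 and 0 by edgeR. Drug and vehicle mice were both injected.

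The daily mean of 8 members differed in WT, against 18.7% of all genes, 5 higher (9.5%) and 3 lower (9.21%) under rapamycin. Hspa4l, an Hsp110 protein, averaged 20.2 ± 9.91 RPM with rapamycin against 32.8 ± 7.61 with vehicle (log2 -0.75 ± 0.14; limma, adjusted p = 3.81e-05), and Hsf1 averaged 6.71 ± 1.18 with rapamycin against 4.40 ± 2.22 with vehicle (log2 0.69 ± 0.15; adjusted p = 5.61e-04). Hspd1 (-0.42 ± 0.12) and Hspe1 (-0.26 ± 0.10) fell, while Cct2, Ptges3, Stub1 and Hspa1b rose by 0.21 to 0.61. The Hspe1 call in WT was lost with edgeR (adjusted p = 0.0511), with no filter (limma, 0.0545) and without each replicate (0.119, 0.215 and 0.0753). Hspa1b and Ptges3 were lost without replicates 2 and 3, Stub1 without 1 and 3, Hspd1 and Cct2 without 2, and Hsf1 without 1. In BMKO mice 6 members differed, against 11.9% of all genes, 2 higher (5.92%) and 4 lower (5.99%), and the 4 lower were all mitochondrial: Hspa9 (-0.20 ± 0.05), Dnaja3 (-0.38 ± 0.11), Trap1 (-0.25 ± 0.08) and Hspe1 (-0.28 ± 0.10). Of these 4, Hspe1 was lost with DESeq2 size factors (limma, adjusted p = 0.0518), with no filter (0.0574) and without each replicate, Trap1 without each replicate (0.368, 0.0593 and 0.109), Hspa9 without replicates 2 and 3, and Dnaja3 without replicates 1 and 2. Hspe1 averaged 209.8 ± 25.7 RPM in BMKO with rapamycin against 255 ± 33.0 with vehicle. Without replicates 1, 2 and 3 in turn the count was 9, 4 and 5 in WT and 3, 0 and 1 in BMKO. The rapamycin difference itself differed between genotypes for 5 members (14.4% of all genes): Hsf1 (log2 -1.10 ± 0.21), Hspa1b (-1.11 ± 0.30) and Dnaja3 (-0.49 ± 0.16) were lower in BMKO than in WT by this measure, and Hspa4l (0.64 ± 0.19) and Cacybp (0.83 ± 0.26) higher. That count was 0, 4 and 8 without replicates 1, 2 and 3. With edgeR, Hspa4l had an adjusted p of 0.0511 and Cacybp of 0.0955. The hepatocyte sum (6 of 6 markers) ran from 42413 to 75332 RPM in WT with rapamycin against 67691 to 114675 with vehicle, and from 29381 to 64887 in BMKO with rapamycin against 36069 to 72376 with vehicle. The stellate and fibroblast sum (5 of 5) ran from 120.4 to 352 RPM in WT with rapamycin against 217 to 408 with vehicle, and from 265 to 386 in BMKO with rapamycin (median 327) against 174 to 307 with vehicle (median 238). Their part in the result was not tested.

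With liver loss of Tsc1 or of Raptor many daily means differed and no rhythm difference passed. For TSKO against AC, limma called 0 rhythm differences among the members (0.00813% of all genes), with 7 at an unadjusted p under 0.05 and 0 by edgeR. For RPKO against AC it called 0 (0.0% of all genes), with 1 at an unadjusted p under 0.05 and 0 by edgeR. Both share the AC libraries. Hsph1 shows the profiles of the 3 arms: at ZT 6 it had 15.1, 12.0 and 9.08 RPM in TSKO and 9.46, 10.9 and 9.50 in RPKO against 9.52, 10.7 and 10.8 in AC. At ZT 14 it had 95.4, 80.4 and 57.0 RPM in TSKO and 36.2, 37.7 and 48.0 in RPKO against 69.6, 48.4 and 55.4 in AC. Its amplitude was 1.53 ± 0.10 in TSKO and 1.15 ± 0.09 in RPKO against 1.30 ± 0.08 in AC.

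The daily mean of 18 members differed in TSKO, against 36.4% of all genes, 8 higher (17.8%) and 10 lower (18.6%). In RPKO 24 differed, against 42.4%, 15 higher (21.8%) and 9 lower (20.7%). Without replicates 1, 2 and 3 in turn the count was 15, 9 and 13 in TSKO and 20, 18 and 20 in RPKO. Hspb1 had the largest change of the members in TSKO: its libraries held 8.07, 45.3 and 132 RPM (lowest, median and highest) in TSKO and 15.4, 29.2 and 95.2 in RPKO, against 7.16, 14.7 and 36.7 in AC. The ranges overlapped across the day, and the log2 difference of the daily mean was 1.35 ± 0.13 in TSKO and 1.05 ± 0.13 in RPKO (limma, adjusted p = 6.24e-11 and 1.28e-08). Of the 5 mitochondrial chaperones 4 fell in TSKO: Hspe1 (-0.52 ± 0.08), Hspd1 (-0.21 ± 0.07), Hspa9 (-0.17 ± 0.04) and Trap1 (-0.14 ± 0.05). Of the fixed representatives among these, Hspe1 and Hspd1, the call of Hspd1 was lost without replicates 2 and 3 (limma, adjusted p = 0.0652 and 0.1645). No such check is given here for Hspa9 and Trap1. In RPKO all 7 J proteins differed, 6 higher and Dnajb1 lower. Dnajb6 ranged over 85.5, 106 and 159.7 RPM in RPKO against 31.5, 51.1 and 81.9 in AC (log2 1.16 ± 0.07; limma, adjusted p = 1.35e-18), Dnaja2 rose by 0.42 ± 0.04 and Dnajb1 had -0.29 ± 0.09. The Dnajb1 call was lost without replicates 2 and 3 (limma, adjusted p = 0.0945 and 0.143). Ptges3 rose in RPKO (0.49 ± 0.05) and Hspa4 fell (-0.41 ± 0.06), while Hspa4 rose in TSKO (0.20 ± 0.06).

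**Figure D4:**
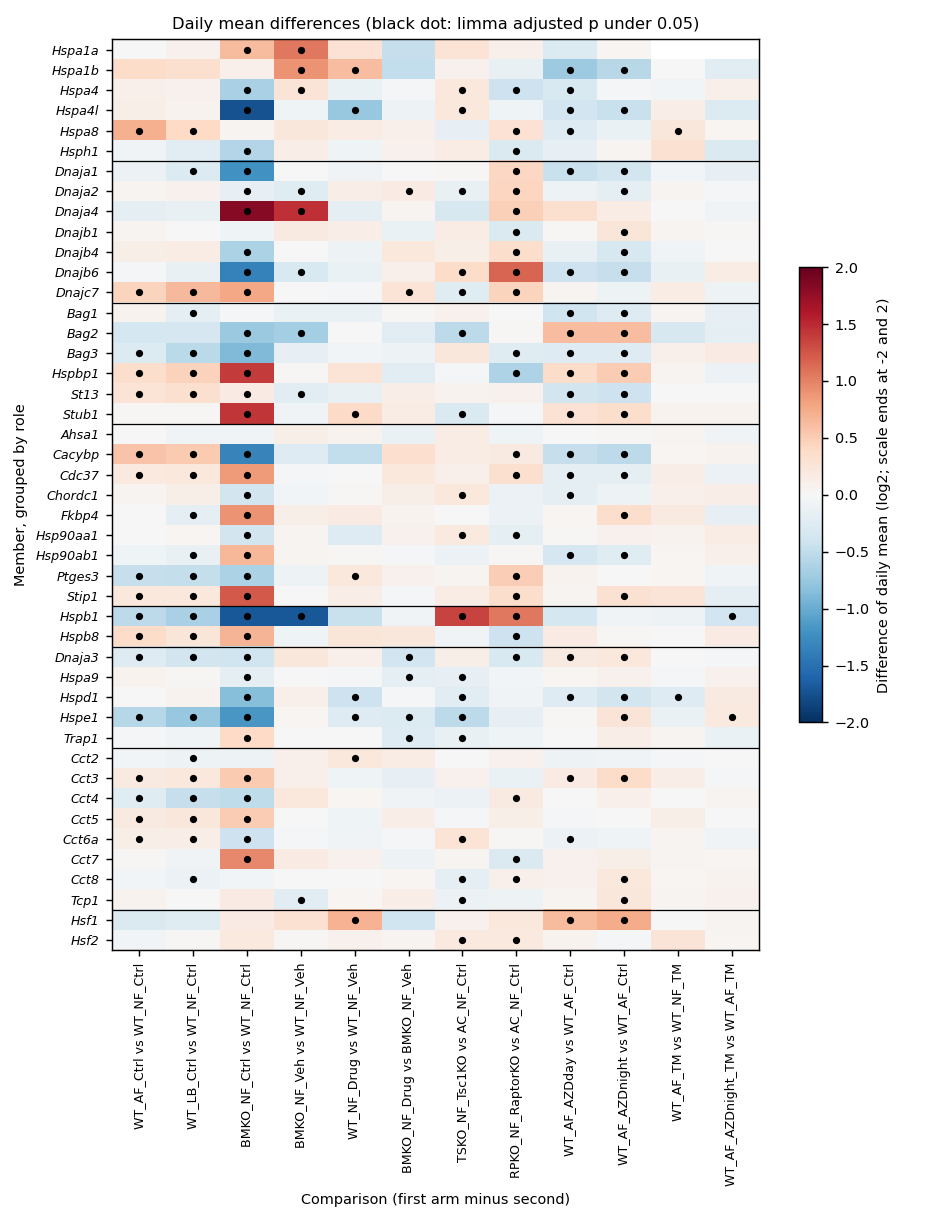
Heat map of the difference in daily mean (log2, first arm minus second, colour scale from -2 to 2) for the 45 members (down the page, grouped by role) in 12 comparisons (across), with a black dot where limma's adjusted p was under 0.05. Uninjected BMKO against WT has the most dots, 35, and the tunicamycin comparisons have 2 each.

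In arrhythmically fed mice given AZD8055, many chaperones differed from uninjected mice, and so did many other genes. For daily means, 46.7% of members were called with dawn injection, against 41.1% of all genes. With dusk injection it was 55.6% against 51.0%, so both shares were near the background. The share for rhythm differences was also near it with dawn injection (15.6% against 14.7%), and was 28.9% against 5.71% with dusk injection. The daily mean differed from the uninjected AF arm for 21 members with dawn injection, against 41.1% of all genes, 6 higher (21.4%) and 15 lower (19.7%). With dusk injection 25 differed, against 51.0%, 12 higher (27.5%) and 13 lower (23.5%). Both share the AF libraries. All 6 Hsp70 cochaperones outside the J proteins were called for each injection time: Stub1, Bag2 and Hspbp1 higher, St13, Bag1 and Bag3 lower. The Bag3 call was lost for dawn injection without replicates 1 and 3 (limma, adjusted p = 0.0811 and 0.0785). For dusk injection it was lost without replicate 1 (0.1985). St13 averaged 104 ± 13.3 RPM with dawn and 99.8 ± 7.69 with dusk injection, against 133 ± 9.42 without injection (log2 -0.37 ± 0.05 and -0.42 ± 0.05; limma, adjusted p = 1.42e-07 and 7.82e-09). Hsf1 averaged 7.85 ± 2.43 RPM with dawn and 8.35 ± 1.63 with dusk injection, against 4.84 ± 1.25 without (log2 0.64 ± 0.11 and 0.74 ± 0.11). Dnaja1 fell with each, with log2 differences of -0.44 ± 0.06 and -0.37 ± 0.06, and Cacybp likewise with -0.46 ± 0.07 and -0.53 ± 0.07.

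Rhythms differed from the uninjected AF arm for 7 members with dawn injection, against 14.7% of all genes, with 6 of higher (12.1%) and 1 of lower amplitude (2.56%). With dusk injection 13 differed, against 5.71%, with 7 of higher (4.9%) and 6 of lower amplitude (0.804%). Without replicates 1, 2 and 3 in turn the count was 4, 5 and 3 with dawn and 7, 5 and 3 with dusk injection. Hspa8 peaked at ZT 10.4 with dawn and ZT 19.7 with dusk injection, against ZT 14.8 without (limma, adjusted p of the rhythm difference = 5.89e-04 and 0.00259). Hspa1b peaked at ZT 10.6 with dawn injection against ZT 15.3 without (0.00105), and Bag3 at ZT 10.2 against ZT 14.5 without (0.0268), where its own rhythm did not pass (adjusted p = 0.114). With dusk injection Hsph1 peaked at ZT 23.0 against ZT 15.9 without (0.00179), and Hsp90aa1, with an amplitude of 0.60 against 0.50 without, peaked just after lights on at ZT 0.159 against ZT 17.4 without (1.30e-04). These p-values test amplitude and peak jointly. For dawn injection, Hspa1b was lost without replicate 2 (limma, adjusted p = 0.0727) and Bag3 without replicates 1 and 3 (0.231 and 0.3085). For dusk injection, Hspa8 was lost without replicates 1 and 2 (0.0562 and 0.0782) and Hsph1 without replicates 2 and 3 (0.0724 and 0.0875).

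Each time was also compared with the uninjected arm, 12 contrasts chosen after the daily curves had been seen. With dawn injection 1 member differed at ZT 2 (7.26% of all genes), 7 at ZT 6 (16.2%), 9 at ZT 10 (23.3%), 5 at ZT 14 (11.1%), 2 at ZT 18 (2.12%) and 2 at ZT 22 (1.19%). With dusk injection 8 differed at ZT 2 (12.2%), 1 at ZT 6 (5.67%), 1 at ZT 10 (2.38%), 17 at ZT 14 (17.1%), 15 at ZT 18 (18.9%) and 11 at ZT 22 (19.7%). Of the 17 at ZT 14, 15 were lower (7.83% of all genes), and all 8 at ZT 2 were higher (7.72%): Fkbp4, Stub1, Hsp90aa1, Stip1, Hsph1 and the TRiC subunits Cct3, Cct7 and Cct8.

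Hspb8 rose at ZT 6 with dawn and at ZT 18 with dusk injection. At ZT 6 it had 769.8, 1351 and 1027 RPM with dawn injection against 226, 401 and 304 without (log2 1.76 ± 0.20; limma, adjusted p = 2.47e-08). At ZT 18 it had 949, 819 and 923 RPM with dusk injection against 315, 316 and 365 without (log2 1.43 ± 0.20; adjusted p = 2.06e-06). The groups did not overlap at either time. Of the members called at ZT 6 with dawn injection 1 was higher (8.75% of all genes) and 6 were lower (7.42%): Cacybp, Dnaja1, Hsf2, Hspa4, Hsp90ab1 and Dnajb4. Of the 15 called at ZT 18 with dusk injection 6 were higher (9.79%), namely Hspb8, Hspa1a, Hspa1b, Bag3, Hsf1 and Hspbp1, and 9 were lower (9.09%). Hspa1b had 0.979, 2.18 and 4.37 RPM at ZT 14 with dusk injection against 27.3, 30.3 and 23.3 without (log2 -3.35 ± 0.36; limma, adjusted p = 1.19e-08), again without overlap. At that time Hspa8 had 105, 89.6 and 69.9 RPM with dusk injection against 185, 227 and 164 without (log2 -1.13 ± 0.20; adjusted p = 1.53e-04). Bag3, the partner of Hspb8, had 14.1, 22.2 and 20.7 RPM with dusk injection against 61.8, 60.6 and 46.2 without at ZT 14, and 56.7, 38.7 and 62.4 with dusk injection against 37.4, 27.6 and 38.1 without at ZT 18. Without replicates 1, 2 and 3 in turn 5, 5 and 3 members differed at ZT 6 with dawn injection and 10, 6 and 4 at ZT 18 with dusk injection. The neutrophil sum (2 of 3 markers in the table) ran from 0.581 to 113 RPM with dawn and from 0.827 to 130.4 with dusk injection, against 0.254 to 4.00 without. Their part in the result was not tested.

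**Figure D5:**
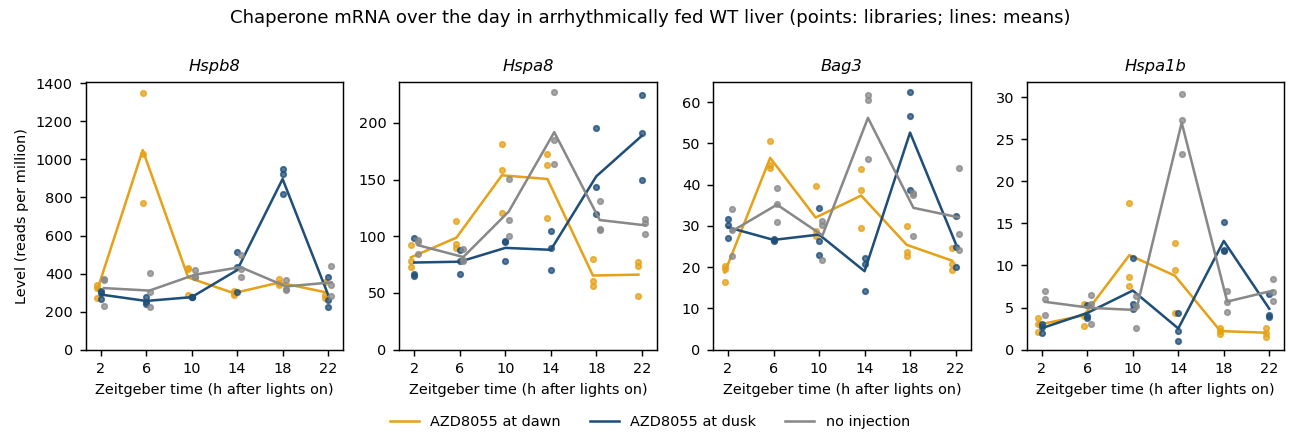
Levels (RPM, from 0) of Hspb8, Hspa8, Bag3 and Hspa1b by zeitgeber time (h) in arrhythmically fed WT liver with AZD8055 at dawn, AZD8055 at dusk or no injection; points are libraries (3 a time) and lines join means. Hspb8 stands out at ZT 6 with dawn and at ZT 18 with dusk injection, and Hspa1b is low at ZT 14 with dusk injection.

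Under tunicamycin few levels differed. Between AF and NF mice, 2 of 44 members had a different daily mean, against 0.579% of all genes: Hspa8 was higher, with 67.7 ± 6.63 RPM under AF against 59.1 ± 4.63 under NF (n = 16 each; log2 0.22 ± 0.06; limma, adjusted p = 0.0458), and Hspd1 lower, with 224 ± 31.6 under AF against 269 ± 25.2 under NF (log2 -0.26 ± 0.06; adjusted p = 0.0401). The Hspa8 call was lost with DESeq2 size factors (limma, adjusted p = 0.0543) and with no filter (0.0530). Between AF with AZD8055 at dusk and AF alone 2 differed, against 8.85%: Hspe1 higher (log2 0.19 ± 0.06) and Hspb1 lower (-0.39 ± 0.12). Without replicates 1 to 4 in turn the count was 1, 0, 0 and 0 for the first comparison and 2, 1, 0 and 0 for the second. Rhythms differed between AF and NF for 4 members, against 4.43% of all genes, with 2 of higher (1.0%) and 2 of lower amplitude (3.42%), and for 2, 3, 1 and 1 without replicates 1 to 4. Hspa8 was called under every leave-out, with an amplitude of 0.14 and a fitted peak at ZT 8.39 under AF, where its own rhythm did not pass (adjusted p = 0.318), against 0.38 and ZT 16.3 under NF (limma, adjusted p = 5.89e-04). At ZT 4 it had 68.5, 68.7, 74.9 and 84.8 RPM under AF against 42.5, 50.6, 45.7 and 56.0 under NF, and at ZT 16 76.4, 69.2, 64.7 and 64.0 under AF against 83.7, 85.0, 81.4 and 80.2 under NF. The groups did not overlap at either time, with AF above NF at ZT 4 and below it at ZT 16. Between AF with AZD8055 and AF alone limma called 0 rhythm differences (0.0326% of all genes), with 5 members at an unadjusted p under 0.05 and 0 by edgeR. The 2 tables were normalized separately, so no level was compared across them.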

How the data were processed

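Liver RNA of 282 libraries in 16 arms was deposited as 2 tables of values per gene. The submitters' processing notes name STAR 2.7.3a, SAMtools and the build mm10 (GRCm38.p6), while the programs that counted and scaled reads are not named in the labels. As deposited, the values are a signal: each library holds whole reads divided by 1 factor, and multiplying back gave whole reads (tolerance 0.01) for 99.913% of values in the larger table and 100.0% in the smaller one. In the Raptor knockout arm 197 genes, none a member, stood off that step and were left out of library sizes and of fits with that arm. Arms, times and replicates follow the labels.

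Reads were scaled to reads per 1000000 (RPM) with edgeR's TMM factors (edgeR 4.0.16) and genes averaging at least 1 RPM were kept (12444 in the larger table, 12297 in fits with the Raptor arm, 12263 in the smaller one). The main test was limma 3.58.1 with a mean-variance trend on log2(RPM + 0.5), in which the pseudocount understates fold changes of low genes, with a mean for each arm and time. Rhythms within an arm were fitted in that arm alone. Comparisons were fitted in sets of related arms, and the arms of a set share an estimate of the spread. The daily mean is the equally weighted mean over times; the rhythm is a joint test of the 24 h cosine and sine terms; the Benjamini-Hochberg threshold was 0.05 over all genes tested. Alternatives were DESeq2 1.42.0 size factors, no filter, a pseudocount of 2, edgeR's quasi-likelihood test on the recovered reads, a replicate block, leaving out each replicate, and leaving out libraries under 3 M reads. Single time contrasts for AZD8055 and the fit without 2 ad libitum libraries were added after seeing the data. Replicate numbers were not used to pair libraries between arms in the main tests. In no comparison did every same-numbered pair of deviations correlate over 0.1, which does not exclude pairing in part. Rapamycin against vehicle in BMKO had 11 of 18 pairs over 0.1 (median 0.164). It was 10 of 18 for LB against NF (median 0.109) and 9 of 18 for vehicle-injected BMKO against WT (median 0.0891). Within arms, same-numbered libraries of different times often correlated over 0.1, most in vehicle-injected BMKO (44 of 45 pairs, median 0.476). Neither the main rhythm tests nor the daily mean tests hold a term for this. The daily mean tests treat all libraries as independent, so variation shared in this way makes their standard errors and p-values too small. In comparisons the replicate block is common to all arms of a fit, so it does not take up effects of a single arm.

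Per the design, values are given for fixed representatives of each role, for up to 6 members with the smallest adjusted p in each comparison, and for members outside the rhythmic set in night-fed WT; others named here, among them Hspb8 at single times, were picked with their values in view. The members and lists were chosen with earlier results of these data known. Depth limits the precision of low genes such as Hspa1a and Bag2. Analyses used R 4.3.3 and Python 3.11.15. Where a cell type list is given as a sum, all its genes in the table were added.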

Additional observations from a re-analysis of the deposited data

Results flagged for a closer look

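The genotype difference between BMKO and WT differed between uninjected and vehicle-injected mice, by limma's interaction test, for 6 members among those listed by smallest adjusted p. The log2 interaction was -1.20 for Dnaja1, -0.92 for Hspa4, -1.66 for Hspa4l, 0.90 for Cdc37, -1.20 for Hspe1 and 1.5 for Stub1. Hspa4l averaged 10.5 ± 2.92 RPM in uninjected BMKO against 38.2 ± 9.67 in WT, and 30.3 ± 9.24 in vehicle-injected BMKO against 32.8 ± 7.61 in WT. Cdc37 averaged 68.2 ± 20.7 RPM in uninjected BMKO against 36.7 ± 4.41 in WT, and 42.6 ± 5.16 in vehicle-injected BMKO against 44.2 ± 7.82 in WT.

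The rapamycin difference differed between BMKO and WT, by the same kind of test, for Hspa1b (log2 -1.11), Hspa4l (0.64), Cacybp (0.83), Hsf1 (-1.10) and Dnaja3 (-0.49). Hsf1 averaged 3.93 ± 1.82 RPM with rapamycin against 5.12 ± 1.42 with vehicle in BMKO, and 6.71 ± 1.18 with rapamycin against 4.40 ± 2.22 with vehicle in WT.

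Under tunicamycin 1 library stood far from the other 3 of its time and arm for Hsph1 at ZT 4 under NF (highest 25.7 RPM) and for Hspb8 at ZT 10 under AF with AZD8055 at dusk (highest 939 RPM). These are 2 of 60 groups looked at over 5 genes, and chance marks about 1 in 20 groups. Hspb8 was added to that check after its values were seen.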

How the results depend on the processing

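Of 399 results on named members, 2883 recomputed values kept their direction and side of the threshold, 485 fell short of the threshold and 5 turned round. The counts of members called under each alternative other than leaving out a replicate stayed within 1.5 times of those reported with these exceptions. With DESeq2 size factors, and with no filter, the daily mean of AF against NF under tunicamycin was called for 1 member each. With edgeR, rhythmic members in rapamycin-injected BMKO numbered 2, and rhythm differences of uninjected BMKO 2. Without libraries under 3 M reads those rhythm differences of uninjected BMKO also numbered 2. With a replicate block the rhythmic members were 16 in rapamycin-injected WT, 22 in vehicle-injected BMKO and 19 with AZD8055 at dusk. With that block the rapamycin interaction was called for 8 and the daily mean of AZD8055 under tunicamycin for 4. Replicate numbers were not taken as pairs in the main tests. Leaving out 1 replicate at a time, which removes a library from each time, gave these ranges. Rhythmic members numbered 17 to 21 in uninjected night-fed WT, 7 to 8 in AF, 5 to 13 in uninjected BMKO, 10 to 13 in vehicle-injected WT, 3 to 13 in rapamycin-injected WT, 1 to 16 in vehicle-injected BMKO, 0 to 1 in rapamycin-injected BMKO, 18 to 22 in AC, 21 to 22 in TSKO, 8 to 16 in AZD8055 at dawn, 3 to 10 in AZD8055 at dusk, 2 to 18 in LB, 15 to 22 in RPKO, 6 to 12 in NF with tunicamycin, 2 in AF with tunicamycin and 5 to 9 in AF with tunicamycin and AZD8055. Rhythm differences numbered 1 to 9 for AF, 0 to 4 for LB, 0 to 5 for uninjected BMKO, 3 to 5 for AZD8055 at dawn, 3 to 7 for AZD8055 at dusk and 1 to 3 for AF with tunicamycin, each against its own control arm, and 0 for the other 6 comparisons. Daily means differed for 11 to 16 members for AF, 14 to 22 for LB, 33 to 35 for uninjected BMKO, 6 to 16 for vehicle-injected BMKO, 4 to 9 for rapamycin-injected WT, 0 to 3 for rapamycin-injected BMKO, 9 to 15 for TSKO, 18 to 20 for RPKO, 14 to 17 for AZD8055 at dawn, 17 to 21 for AZD8055 at dusk, 0 to 1 for AF with tunicamycin and 0 to 2 for AF with tunicamycin and AZD8055. The rapamycin interaction was called for 0 to 8 members and the BMKO interaction for 23 to 33. With AZD8055, 3 to 5 members differed at ZT 6 after dawn and 4 to 10 at ZT 18 after dusk injection. The amplitude difference turned round in 5 cases, none past the threshold. Without a replicate it ran from -0.22 to 0.0025 for Hsph1 and from -0.068 to 0.017 for Cct7 with AZD8055 at dusk against AF, turning without replicate 2. Under tunicamycin, AF against NF, it ran from -0.061 to 0.127 for Hspa4, turning without replicate 2 (-9.25e-04) and replicate 3, and from -0.050 to 0.038 for Cct6a, turning without replicate 2. The causes were not tested. Depth limits what can be seen of Hspa1a, Bag2 and Hsf1, all of a few RPM. No alternative scaling moved the median difference of all genes by over 0.1 on the log2 scale. With DESeq2 size factors 4 of 7 members called for the rapamycin interaction were higher in BMKO, against 2 of 5 as reported and 0 of 4 with edgeR; without libraries under 3 M reads 4 of 8 called for rapamycin in BMKO were higher, against 2 of 6.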

Other observations

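Genes of neighbouring pathways, taken as whole lists, shared the daily pattern only in part. In uninjected night-fed WT liver limma called rhythmic 7 of 19 further cytosolic J proteins and Hsp70 or Hsp90 partners, 1 of 6 prefoldin subunits, which pass clients to TRiC, 5 of 11 genes of the mitochondrial import motor and proteases, 3 of 4 further HSF1 targets and 1 of 2 cold-inducible genes, against 21.9% of all genes. The matrix unfoldase Clpx had an amplitude of 1.38 ± 0.11 and a peak at ZT 23.7, and the cold-inducible RNA-binding protein Cirbp one of 1.21 ± 0.10 with a peak at ZT 5.03, in the light phase and about opposite to the heat shock genes. Under AF the counts were 2, 0, 1, 1 and 1 (against 7.81% of all genes), and under LB 2, 2, 2, 1 and 0 (against 16.5%). The rhythm differed between AF and NF for Dnajc5, a J protein of secretory vesicles, and Clpx (4.61% of all genes), and between LB and NF for Cirbp (0.86%).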
